A study of Rattus norvegicus with 12 samples.

Results

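The neuropeptide genes described here, 5 in all, were followed in the CA1 pyramidal cell layer of the rat hippocampus: somatostatin (Sst, ENSRNOG00000001837), neuropeptide Y (Npy, ENSRNOG00000046449), vasoactive intestinal peptide (Vip, ENSRNOG00000018808), cholecystokinin (Cck, ENSRNOG00000019321) and proenkephalin (Penk, ENSRNOG00000008943). They were taken by identifier, 5 of the 32662 identifiers counted, and all 5 had a row. Their names come from the list that defined the set, because no table used here pairs the identifiers with symbols. RNA was sequenced from superficial CA1, the side towards the stratum radiatum, and deep CA1, the side towards the stratum oriens, each cut out by laser from 20 µm sections. The animals were adult male Wistar rats, labelled as 45 to 50 days old and weighing 180 to 200 g. Epileptic rats had been injected with 5 mg/kg kainate every hour until status epilepticus, were given 4 mg/kg diazepam and were sampled 6 to 8 weeks later. Control rats had received vehicle, saline or DMSO, and a similar treatment otherwise. Seizures were observed or recorded in some of the epileptic animals, per the labels' protocols. Both sublayers came from each of 3 epileptic and 3 control rats, which gave 12 libraries in 4 groups of 3.

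Neuropeptides are cut from larger precursors, stored in dense-core vesicles and released during strong firing, where they act on G-protein-coupled receptors. In the hippocampus Sst marks interneurons of the stratum oriens that inhibit the distal dendrites of pyramidal cells, and Npy is made by several interneuron classes. Vip marks interneurons of which many inhibit other interneurons, Cck is made both by a class of basket cells and by pyramidal cells, and Penk gives rise to the enkephalins, which act on opioid receptors. In collected tissue, a difference in the number of cells of a type and a difference in RNA per cell cannot be told apart. Genes that define the cell types were not analysed here, since they could not be paired with identifiers, and neither were the peptide receptors and processing enzymes.

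The Npy row was empty in nearly all libraries. It held 1 read in total, in deep CA1 of control animal 3, and 0 reads in the other 11 libraries. A limit of 3 reads corresponded to 0.122 to 0.178 CPM over the 12 libraries (the depth-scaled read count, with library sizes adjusted by the trimmed mean of M-values, TMM). Npy mRNA is known to be plentiful in hippocampal interneurons, so the row goes against its label as a measure of Npy. Whether the reads of this gene were assigned to another row or to none was not tested, and no level or change of Npy is given. The other 4 genes passed the filter on low counts in every comparison. They held 52 to 464 reads for Sst, 158 to 615 for Vip, 1757 to 7737 for Cck and 36 to 182 for Penk in single libraries. Counting error alone, taken as 1 over the square root of the count, amounted to 4.64 to 13.9% for Sst and 7.41 to 16.7% for Penk, and to at most 7.96% for Vip and 2.39% for Cck.

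The libraries held 20623196 to 25893962 gene counts in epileptic and 16135358 to 19550582 in control rats. In epileptic animals 2 and 3 the 4 libraries had 22.3 to 26.7% of their alignments outside annotated exons. The share was 43.0% in deep and 37.7% in superficial CA1 of epileptic animal 1, and 35.8 to 44.0% in the control libraries. The most abundant identifier took 11.0 to 22.8% of the gene counts in epileptic and 8.24 to 12.97% in control libraries.

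Sst was lower, and Vip, Cck and Penk were higher, in superficial than in deep CA1, in 6 of 6 animals each. Over all 14791 identifiers tested, 10.5% were lower and 11.0% higher in superficial CA1 in every animal. In the mean over epileptic and control rats all 4 genes passed the test (edgeR quasi-likelihood test with the animal as a block, Benjamini-Hochberg adjusted p below 0.05), 1 as lower and 3 as higher in superficial CA1, where 9.97% and 10.4% of all identifiers were called in these directions. The log2 fold change was −1.15 for Sst (SE 0.12, adjusted p = 7.389e-06), 0.98 for Vip (SE 0.11, adjusted p = 7.546e-05) and 0.92 for Penk (SE 0.12, adjusted p = 7.124e-05). Cck had the smallest of these differences, at 0.59 (SE 0.11, adjusted p = 0.01035), and its call was lost without epileptic animal 1 (log2 fold change 0.52, adjusted p = 0.07404). The median log2 fold change was 0.75 over the 4 genes and 0.0103 over all identifiers.

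**Figure D1:**
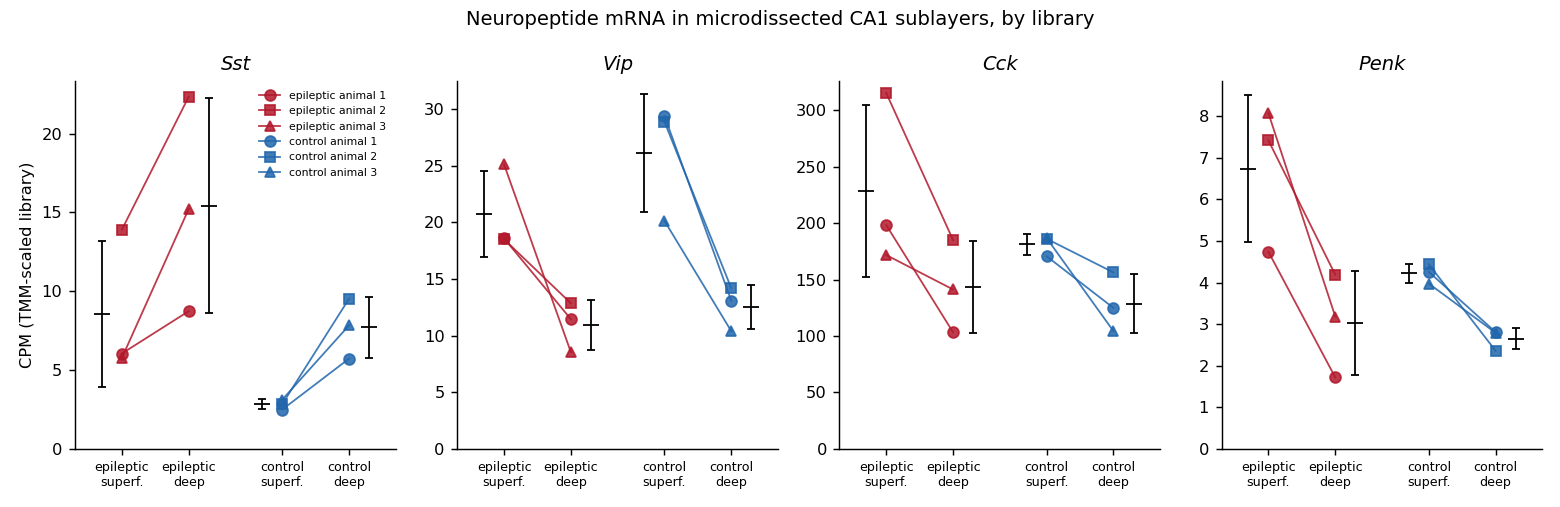
CPM (TMM-scaled) of Sst, Vip, Cck and Penk in each library, with a line joining the superficial and the deep library of an animal and black bars for the mean ± SD of each group (n = 3). Sst lines climb from superficial to deep CA1 in all 6 animals, and the lines of the other genes descend.

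Sst and Vip lay at opposite ends of this axis, and their promoter windows are shown for that reason. They are RefSeq sequences of 300 bases on the plus strand of build GRCr8, with 250 bases before and 50 after the annotated gene start, at chr11:90461296-90461595 for Sst and chr1:44470230-44470529 for Vip. Capitals mark TGACG, the core of the cyclic AMP response element bound by CREB family factors, searched on both strands (CGTCA on the other), with overlapping matches joined.
Sst: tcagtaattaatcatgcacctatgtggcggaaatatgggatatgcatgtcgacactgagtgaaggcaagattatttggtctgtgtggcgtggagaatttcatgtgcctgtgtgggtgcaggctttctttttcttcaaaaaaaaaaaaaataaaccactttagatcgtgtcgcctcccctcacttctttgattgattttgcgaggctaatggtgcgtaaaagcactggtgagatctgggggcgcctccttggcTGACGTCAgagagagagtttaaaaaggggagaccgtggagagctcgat
Vip: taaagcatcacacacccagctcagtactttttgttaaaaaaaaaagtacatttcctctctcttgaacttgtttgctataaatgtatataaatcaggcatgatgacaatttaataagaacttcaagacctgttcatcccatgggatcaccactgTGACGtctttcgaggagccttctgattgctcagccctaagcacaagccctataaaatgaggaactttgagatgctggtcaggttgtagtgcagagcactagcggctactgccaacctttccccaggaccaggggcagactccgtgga
The Sst window held the full palindrome TGACGTCA at bases 253 to 260, in which the match of each strand overlaps the other. That palindrome lay after the annotated gene start. The Vip window held the core once, before the annotated start at bases 154 to 158, and not the full palindrome. Of 33469 promoter windows of this length, 21.2% held the core and 1.83% the palindrome. These letters are a description of the windows, and the libraries hold no measurement of factor binding. Entries were found for 3 of the 5 genes, the other one being Npy.

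Somatostatin mRNA was 1.44 to 3.36 times as high in deep as in superficial CA1. In epileptic animals 1, 2 and 3 the level was 6.04, 13.9 and 5.76 CPM in superficial and 8.73, 22.3 and 15.2 CPM in deep CA1. In control animals 1, 2 and 3 it was 2.49, 2.84 and 3.12 CPM in superficial and 5.72, 9.53 and 7.83 CPM in deep CA1. The superficial and deep control libraries did not overlap, whereas the epileptic ones did, as superficial CA1 of animal 2 lay above deep CA1 of animal 1. How many of all identifiers lacked such overlap between sublayers was not counted, here or for Vip and Cck below. Sst was called as lower in superficial CA1 of epileptic rats (log2 fold change −0.86, SE 0.14, adjusted p = 0.001347), where 5.00% of all identifiers were called in this direction. It was also called in control rats (log2 fold change −1.44, SE 0.18, adjusted p = 0.0001854), where 4.18% were.

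Vip mRNA ran the other way. It was 18.6, 18.5 and 25.1 CPM in superficial and 11.4, 12.9 and 8.52 CPM in deep CA1 of epileptic animals 1, 2 and 3. The control animals had 29.4, 28.9 and 20.1 CPM in superficial and 13.1, 14.2 and 10.4 CPM in deep CA1. No superficial library overlapped a deep one in either condition. The ratio of superficial to deep varied more among epileptic animals, from 1.44 in animal 2 to 2.95 in animal 3, than among control animals, from 1.94 to 2.25. Vip was called in epileptic rats (log2 fold change 0.91, SE 0.15, adjusted p = 0.003557) and in control rats (1.06, SE 0.15, adjusted p = 0.00145), where 5.04% and 4.26% of all identifiers were called as higher in superficial CA1. Both SEs rest on a dispersion shared by the conditions. In the 6 epileptic libraries alone Vip was called at 0.90 (adjusted p = 0.04337), where 727 of all identifiers were called.

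Penk mRNA was 4.74, 7.42 and 8.07 CPM in superficial and 1.72, 4.19 and 3.18 CPM in deep CA1 of epileptic animals 1, 2 and 3. It was 4.26, 4.44 and 3.97 CPM in superficial and 2.81, 2.36 and 2.79 CPM in deep CA1 of control animals 1, 2 and 3. The control animals had an SD of 0.234 CPM in superficial and 0.256 CPM in deep CA1 (n = 3 each), or 5.55% and 9.64% of the mean. Both were below the counting error of these libraries, 10.6 to 11.6% in superficial and 13.7 to 14.9% in deep CA1. The superficial level was 1.77 to 2.76 times the deep level in epileptic and 1.43 to 1.89 times in control animals. Penk was called in epileptic rats (log2 fold change 1.17, SE 0.16, adjusted p = 0.0003585), where 5.04% of all identifiers were called as higher in superficial CA1. In control rats Penk was called at 0.67 (SE 0.18, adjusted p = 0.02781), where 4.26% were. The control call was lost without control animal 1, 2 or 3 (adjusted p = 0.1209, 0.2373 and 0.09636) and in DESeq2 (0.1257). Those fits called 424, 416, 420 and 815 of all identifiers, against 1248 in the main fit. Over 13 alternatives the control call was kept in 8 and lost in 5, which include the fit without the animal as a block (0.6311). It was kept in the 6 control libraries alone (0.00676) and without epileptic animal 1, 2 or 3 (0.01379, 0.03055 and 0.008549).

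Cck mRNA had 198, 315 and 172 CPM in superficial and 103, 185 and 141 CPM in deep CA1 of epileptic animals 1, 2 and 3. The control animals had 171, 186 and 187 CPM in superficial and 125, 156 and 104 CPM in deep CA1. Superficial and deep libraries overlapped in epileptic rats and not in control rats, and the ratio of superficial to deep was between 1.19 and 1.92 over the 6 animals. Cck was called in epileptic rats (log2 fold change 0.67, SE 0.15, adjusted p = 0.03938) and missed the threshold in control rats (0.51, SE 0.15, adjusted p = 0.09922). The epileptic call was lost without epileptic animal 1 (adjusted p = 0.256), epileptic animal 2 (0.1588) or control animal 1 (0.0747). Those fits called 1039, 536 and 1064 of all identifiers, against 1484 in the main fit. In the 6 control libraries alone Cck was called (log2 fold change 0.50, adjusted p = 0.01899). The control difference also passed without epileptic animal 3 (0.51, adjusted p = 0.002355), which enters that fit only through the shared estimates, and in limma-voom with sample quality weights (0.57, adjusted p = 8.389e-05). A further call came without the low-count filter (0.52, adjusted p = 1.167e-15). Over all identifiers these settings called 2375, 2071, 2523 and 1910 in this order, against 1248 in the main fit of control rats.

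**Figure D2:**
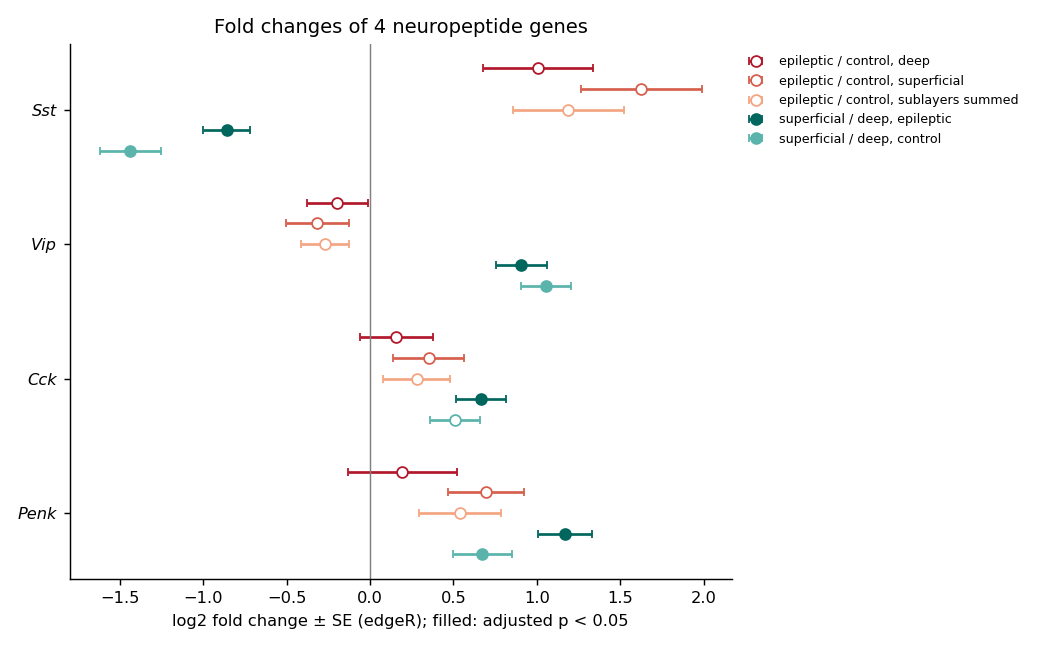
Log2 fold changes ± SE of 4 neuropeptide genes from edgeR for the epilepsy comparisons (red) and the sublayer comparisons (green), with filled points where the adjusted p was below 0.05. Filled points occur only among the sublayer comparisons, and the epilepsy points for Sst lie between 1.01 and 1.63.

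Between epileptic and control rats, 0 of the 4 genes passed the test of edgeR in either sublayer or with the 2 libraries of each animal summed. Few identifiers passed at all, 0 of 14261 (0%) in deep CA1, 0.0140% in superficial CA1 and 0.0325% in the sums. At an unadjusted p below 0.05 lay 1 of the 4 in deep CA1, 2 in superficial CA1 and 1 in the sums. Of all identifiers, 1947 of 14261 (13.7%) lay there in deep CA1, 2710 of 14321 (18.9%) in superficial CA1 and 2788 of 15398 (18.1%) in the sums. DESeq2 called 0 of the 4 in deep CA1, 1 in superficial CA1 and 1 in the sums, both times Sst, beside 376, 885 and 919 of all identifiers in these comparisons. The median log2 fold change of the 4 genes was 0.18 in deep and 0.52 in superficial CA1, and that of all identifiers was 0.00093 in deep and 0.00684 in superficial CA1.

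Sst had the largest difference of the 4 genes between the conditions. In superficial CA1 it averaged 8.57 ± 4.62 CPM in epileptic and 2.81 ± 0.315 CPM in control rats (SD, n = 3 each; log2 fold change 1.63, SE 0.36, adjusted p = 0.1184). Relative to the control mean, superficial Sst was 2.15, 4.94 and 2.05 times as high in epileptic animals 1, 2 and 3. All 3 epileptic animals lay above all 3 control animals, as 10.2% of all identifiers did in this sublayer. The difference exceeded the spread of the control animals, but the test was not passed. The epileptic animals varied by 53.9% (coefficient of variation) against 11.2% in the control animals. That control value was below the counting error of its libraries, 13.1 to 13.9% at 52 to 58 reads.

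In deep CA1, Sst averaged 15.4 ± 6.81 CPM in epileptic and 7.69 ± 1.91 CPM in control rats (SD, n = 3 each; log2 fold change 1.01, SE 0.33, adjusted p = 0.2605). Animals 2 and 3 were 2.90 and 1.98 times the control mean, while animal 1, at 1.13 times, lay within the control range. With the replicate number as a block, which pairs different animals, deep Sst passed (log2 fold change 0.95, adjusted p = 0.0224). That setting called 239 of all identifiers in deep CA1. Summed over both sublayers, Sst was 7.35, 17.8 and 10.3 CPM in epileptic animals 1, 2 and 3 and 4.02, 6.19 and 5.34 CPM in control animals 1, 2 and 3. Every epileptic sum lay above every control sum, as for 11.1% of all identifiers. The sums differed by 1.19 on the log2 scale (SE 0.33, adjusted p = 0.1889).

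The Sst calls moved with single animals and with the test, at a log2 fold change above 0 in each setting run. Without epileptic animal 1, whose levels were nearest to the controls in deep CA1, Sst passed in deep (log2 fold change 1.30, adjusted p = 0.02978) and superficial CA1 (1.83, adjusted p = 0.03287). Over all identifiers, calls without this animal rose from 0 to 552 in deep and from 2 to 1443 in superficial CA1. Without epileptic animal 3, Sst passed in superficial CA1 (1.84, adjusted p = 0.03788), where 409 of all identifiers were called. Without epileptic animal 2, which held the highest Sst level of both sublayers, it was 0.64 in deep CA1 (adjusted p = 0.56) and 1.09 in superficial CA1 (adjusted p = 0.2668). limma-voom with sample quality weights called it in deep (1.51, adjusted p = 0.008296) and superficial CA1 (2.03, adjusted p = 0.01427), and DESeq2 in superficial CA1 (1.63, adjusted p = 0.001758). Of all identifiers, limma-voom called 2171 in deep and 1789 in superficial CA1, and DESeq2 885 in superficial CA1.

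**Figure D3:**
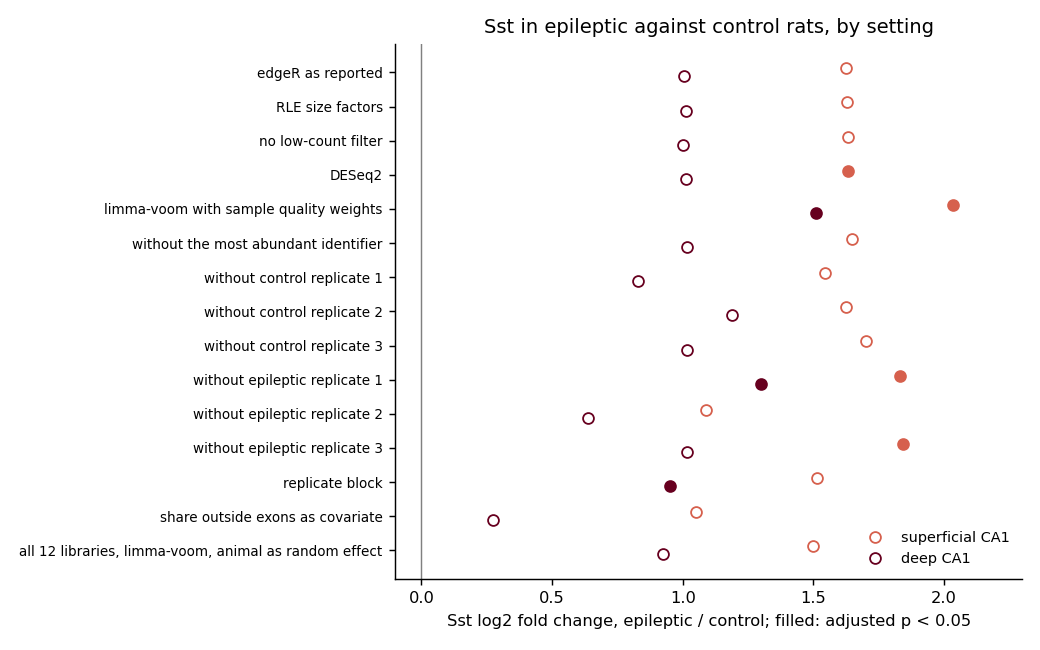
Log2 fold change of Sst in epileptic over control rats in superficial and deep CA1 under each processing setting, filled where the adjusted p was below 0.05. The values run from 1.05 to 2.03 in superficial and from 0.27 to 1.51 in deep CA1.

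The libraries with few alignments outside exons had the highest Sst of their sublayer in deep CA1, but not uniformly in superficial CA1. The share cannot be fully told apart from the condition, and a cause was not tested. The superficial libraries of epileptic animals 2 and 3 had shares of 25.3% and 25.6%, at 13.9 and 5.76 CPM of Sst. Superficial Sst of epileptic animal 1 was 6.04 CPM at a share of 37.7%, which lies within the range of the control libraries of this sublayer (35.8 to 42.2%, with 2.49 to 3.12 CPM). In deep CA1, epileptic animals 2 and 3 had shares of 26.7% and 22.3%, at 22.3 and 15.2 CPM. Deep CA1 of epileptic animal 1 had 8.73 CPM at 43.0%, with both values within the control ranges (40.4 to 44.0%, 5.72 to 9.53 CPM). With the share as a covariate the log2 fold change of Sst was 0.27 in deep (adjusted p = 0.8001) and 1.05 in superficial CA1 (adjusted p = 0.7664), in a fit in which 2 of the 3 epileptic animals had shares below those of all controls.

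**Figure D4:**
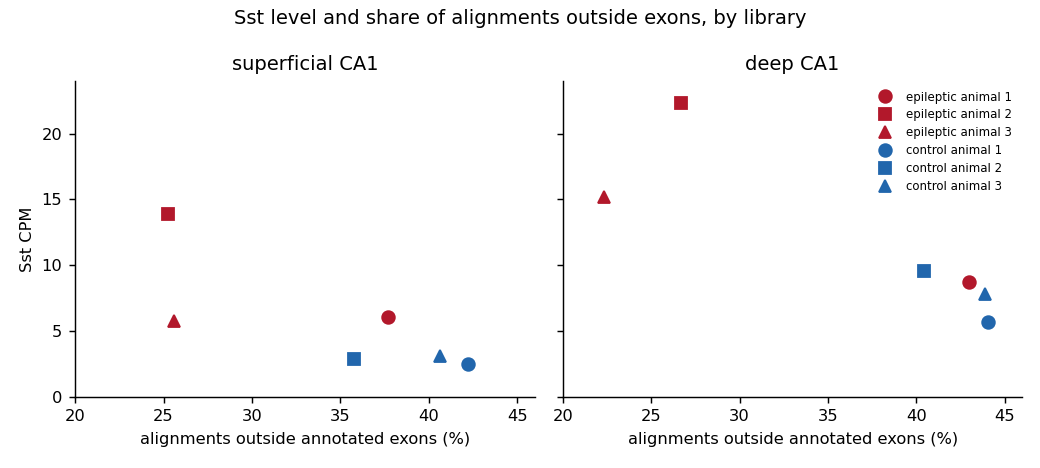
Sst CPM against the percentage of alignments outside annotated exons in the 6 superficial and 6 deep libraries, with red for epileptic and blue for control animals. Epileptic animals 2 and 3 lie at 22.3 to 26.7%, and superficial CA1 of epileptic animal 1 lies above the controls at a share of 37.7%. Deep CA1 of epileptic animal 1 lies among the controls at 43.0%.

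Penk came next. In superficial CA1 it averaged 6.75 ± 1.77 CPM in epileptic and 4.22 ± 0.234 CPM in control rats (SD, n = 3 each), and the log2 fold change of 0.70 missed the threshold (SE 0.23, adjusted p = 0.2006). Every epileptic animal lay above every control animal, as 10.2% of all identifiers did in this sublayer. Animal 1 did so by little, at 4.74 against a highest control value of 4.44 CPM, a margin smaller than its counting error of 9.90%. In deep CA1 the epileptic animals spread to both sides of the control range of 2.36 to 2.81 CPM, with animal 1 below it at 1.72 CPM and animals 2 and 3 above it at 4.19 and 3.18 CPM (log2 fold change 0.20, SE 0.32, adjusted p = 0.8278). No gene of the set had all epileptic above all control animals in deep CA1, where 8.82% of all identifiers did. Without epileptic animal 1, superficial Penk passed (0.90, adjusted p = 0.02969), as it did in limma-voom with quality weights (0.74, adjusted p = 0.02976). Those settings called 1443 and 1789 of all identifiers in superficial CA1. Adjusted for each library's alignments outside exons, the log2 fold change of superficial Penk was 0.14 (adjusted p = 0.999).

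For Cck and Vip, epileptic and control animals overlapped in both sublayers. Cck averaged 229 ± 76.4 CPM in epileptic and 181 ± 9.14 CPM in control rats in superficial CA1 (SD, n = 3 each; log2 fold change 0.35, SE 0.21, adjusted p = 0.3999). Epileptic animal 2 stood at 1.74 times the control mean, and animals 1 and 3 at 1.09 and 0.948 times. Without epileptic animal 2 the log2 fold change of superficial Cck was 0.050 (adjusted p = 0.848), and adjusted for alignments outside exons it was 0.097 (adjusted p = 0.999). limma-voom with quality weights called it (0.62, adjusted p = 0.03955), among 1789 identifiers called. In deep CA1 the log2 fold change of Cck was 0.16 (SE 0.22, adjusted p = 0.7903). Vip averaged 20.7 ± 3.79 CPM in epileptic and 26.1 ± 5.21 CPM in control rats in superficial CA1 (SD, n = 3 each; log2 fold change −0.32, SE 0.19, adjusted p = 0.3827). In deep CA1 it averaged 10.9 ± 2.21 CPM in epileptic and 12.5 ± 1.95 CPM in control rats (SD, n = 3 each; log2 fold change −0.19, SE 0.18, adjusted p = 0.678). Vip was the 1 gene of the 4 with a log2 fold change below 0 in both sublayers.

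A direct test asked whether epilepsy altered the gap between the sublayers, and edgeR called 0 of the 4 genes and 0 of 14791 identifiers (0%). At an unadjusted p below 0.05 lay 1 of the 4 genes and 976 of all identifiers, and DESeq2 called 0 of the 4 and 2 of all. The difference for Sst was 0.58 on the log2 scale (SE 0.23, unadjusted p = 0.0251, adjusted p = 0.7226), towards a smaller gap between the sublayers in epileptic rats. Within animals 1, 2 and 3 the log2 difference of superficial minus deep was −0.53, −0.68 and −1.40 in epileptic and −1.20, −1.75 and −1.33 in control rats. Epileptic animal 3 had a gap like those of the control animals, and animals 1 and 2 had smaller ones. For Penk the difference was 0.49 (SE 0.24, adjusted p = 0.7658), with a wider gap in epileptic rats, and for Cck and Vip it was 0.15 and −0.15 (SE 0.21 and 0.22, adjusted p = 0.9471 and 0.9506).

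Ratios of raw reads within a library do not depend on how libraries are scaled, and are given without a test because they were looked at after the levels. In superficial CA1 there were 0.325, 0.751 and 0.229 Sst reads per Vip read in epileptic animals 1, 2 and 3 and 0.0846, 0.0981 and 0.155 in control animals 1, 2 and 3. In deep CA1 the ratio was 0.762, 1.74 and 1.78 in epileptic and 0.437, 0.672 and 0.754 in control animals 1, 2 and 3. The epileptic animals lay above the control animals in both sublayers, in deep CA1 by a margin at animal 1 that is smaller than its counting error. Superficial CA1 also held fewer Vip reads per Penk read in epileptic rats, at 3.92, 2.49 and 3.11, than in control rats, at 6.91, 6.51 and 5.07, and in deep CA1 the groups overlapped. Of the other pairs, Sst per Cck was higher in all epileptic than in all control animals in both sublayers, and Sst per Penk in deep CA1 only. Vip per Cck and Cck per Penk overlapped in both sublayers. How often ratios of other identifiers do not overlap was not counted.

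**Figure D5:**
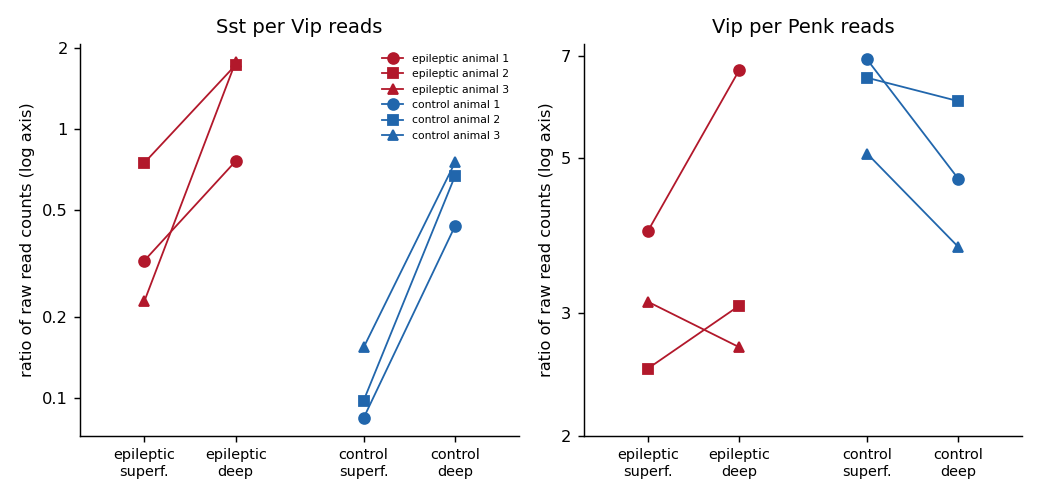
Raw Sst reads per Vip read and Vip reads per Penk read in each library on log axes, with a line joining the superficial and the deep library of an animal. Sst per Vip is higher in deep CA1 in all 6 animals, and superficial Vip per Penk lies at 2.49 to 3.92 in epileptic and 5.07 to 6.91 in control rats.

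Across the 12 libraries, which come in pairs from 6 animals and share depth and composition, log2 CPM of Sst and Vip had a Pearson r of −0.72, that of Cck and Penk 0.79, that of Vip and Penk 0.63 and that of Vip and Cck 0.55, while Sst had r of 0.028 with Cck and −0.098 with Penk. Among 9394 other identifiers with a mean log2 CPM of at least 3, the 2 most like Sst were ENSRNOG00000016099 (Pearson r 0.94, Spearman rho 0.89) and ENSRNOG00000013228 (0.93 and 0.92). For Vip they were ENSRNOG00000003649 (0.93 and 0.94) and ENSRNOG00000033837 (0.92 and 0.88). For Cck they were ENSRNOG00000037402 (0.96 and 0.90) and ENSRNOG00000046799 (0.94 and 0.85), and for Penk ENSRNOG00000015397 (0.94 and 0.94) and ENSRNOG00000020889 (0.92 and 0.96). The highest values among so many identifiers are high by selection, and they describe these 12 libraries without a test.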

How the data were processed

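The deposited values are raw read counts per gene for each of 12 libraries, as the authors made them; the 5 summary tallies of each table were not used as genes. HTSeq 0.6.1, STAR 2.5.0c, SAMtools 0.1.19, FastQC 0.11.3 and the build Rnor 6.0 appear in the submitters' processing notes. How strand was treated was not given in the sources used here, and overlapping or antisense genes may share reads.

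The count test was that of edgeR 4.0.16 in R 4.3.3: filterByExpr (minimum count 10, minimum total 15), TMM scaling and the quasi-likelihood test with robust dispersions, adjusted over all identifiers by Benjamini-Hochberg with a threshold of 0.05. Epilepsy was tested over 3 animals against 3 in each sublayer and in the sums of both, without a block. Sublayers were tested in all 12 libraries with the animal as a block, because deep and superficial libraries of 1 number come from the same brain and deviated together (r = 0.316 to 0.771 over identifiers). Epileptic and control animals of 1 number are different animals, with correlations of 0.222, 0.103 and 0.251 (deep CA1) or 0.225, 0.00539 and 0.176 (superficial CA1). The SE is the absolute log2 fold change divided by the square root of F. CPM used TMM-scaled library sizes, and log2 CPM added a prior count of 2. DESeq2 1.42.0 and limma 3.58.1 served as alternatives. The edgeR tests were checked on simulated data in which both groups had the same dispersion, so unequal spread between conditions was not covered. The p-values of the epilepsy tests rest on the spread between animals. Those of the sublayer tests rest on the spread of the sublayer difference within animals, with a dispersion shared by both conditions. Members and lists were chosen with earlier results of these data known. The rule for naming took the 5 members and the 2 identifiers most like each, and lists by symbol could not be applied, as 0 identifiers were paired with symbols.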

Additional observations from a re-analysis of the deposited data

How the results depend on the processing

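The sublayer directions of Sst, Vip, Cck and Penk were kept in all alternatives run. Without the animal as a block (no replicate block), the number of the 4 genes called between sublayers was 0 in epileptic rats, 0 in control rats and 2 in their mean, against 4, 3 and 4. Over all identifiers that setting called 5, 5 and 265 in this order, against 1484, 1248 and 3010 in the main fit. Leaving out 1 animal at a time gave 3 to 4 of the 4 genes called in epileptic rats, 2 to 4 in control rats and 3 to 4 in the mean. Of all identifiers, those fits called 536 to 2217, 416 to 2071 and 1760 to 4093.

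Between epileptic and control rats, where edgeR called 0 of the 4, limma-voom with sample quality weights called 1 in deep CA1, 3 in superficial CA1 and 3 in the sums. Over all identifiers limma-voom called 2171, 1789 and 2616 in these comparisons, and edgeR 0, 2 and 5. DESeq2 called 1 in superficial CA1 and 1 in the sums, and the replicate block gave 1 in deep CA1 and 0 elsewhere. Leaving out 1 animal gave 0 to 1 in deep CA1, 0 to 2 in superficial CA1 and 0 to 2 in the sums. Over all identifiers those fits called 0 to 552, 0 to 1443 and 0 to 1417. Signs of uncalled values changed without epileptic animal 2: over the fits that left out 1 animal, Cck ran from −0.070 to 0.354 in deep CA1 and from −0.00326 to 0.425 in the sums, Penk from −0.115 to 0.489 in deep CA1, and the Vip change of the sublayer difference from −0.444 to 0.062. With the covariate of alignments outside exons, Cck was −0.279 in deep CA1 and −0.030 in the sums, and Penk −0.464 and −0.068. None of these reversed values was called, and the cause was not tested. Over all identifiers, calls ranged over the alternatives from 0 to 2171 in deep CA1, 0 to 1789 in superficial CA1 and 0 to 2616 in the sums, from 5 to 2523 for the sublayers in control rats, 5 to 2585 in epileptic rats and 265 to 4103 in their mean, and from 0 to 178 for the change of the sublayer difference. The low read counts of Penk and of superficial Sst limit their precision.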
